A study of Triticum aestivum with 12 samples.

Results

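The genes described here lie on chromosomes 1A and 1D of bread wheat, in the ID stretches TraesCS1A02G075000 to TraesCS1A02G100000 and TraesCS1D02G080000 to TraesCS1D02G108000. They are the 1A and 1D counterparts of a stretch of chromosome 1B in which gene after gene had almost no RNA in the RNAi line E82. Membership was set by gene ID and used no measured value of a member, but the stretches were chosen with earlier results of these data known. From the stretches, 2 genes were left out. The members numbered 513 of the 107892 genes in the count table, 242 on 1A and 271 on 1D. RNA was sequenced from E82 grain, wild type (WT) grain, E82 flag leaf and WT flag leaf, collected 20 days after anthesis (DAA) from greenhouse plants, with 3 biological replicates per group and 12 libraries in all. E82 carries inverted repeats against the ω-, α- and γ-gliadins, seed storage proteins, which endosperm-specific promoters drive, and it was derived from the line BW208, the WT, which carries none of these constructs. Only this single transgenic line was sampled, so an effect of the hairpin RNA and any other inherited difference of E82 cannot be told apart.

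Bread wheat is an allohexaploid with 3 subgenomes, A, B and D, and most genes are present as homeologs, closely related copies at similar places of the A, B and D chromosomes of a group. Transcripts of the homeologs often have overlapping functions, and when a copy is lost or silent the remaining copies either keep their own level or increase it, the second of which is called compensation. The group 1 chromosomes are known for the storage protein loci of the grain, among them genes of ω- and γ-gliadins and of low-molecular-weight glutenins. The comparison asked whether the 1A and 1D stretches carried more RNA in E82, where their 1B counterpart was low. The gene IDs do not tell which 1A, 1B and 1D genes are copies of each other, no pairs were made, and no member is given a gene name here because 0 IDs matched the reference table of names.

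Total counts ranged from 27172814 to 59921014 per library. The 1B stretch was taken, from the same ratios of E82 to the WT, as the run of genes TraesCS1B02G087300 to TraesCS1B02G130200, 426 genes in which the median ratio over 15 neighbouring genes was under -1 (log2) in both tissues, so its low level is a description and not a result. The leaf libraries of the lines differed across the whole genome. The study reports a lower share of aligned reads in every WT leaf library than in any E82 leaf library. In grain these shares overlapped between the lines. A difference between the leaf libraries of this kind and a difference between the lines cannot be told apart. Between 55916 and 59840 genes were detected in E82 leaf, against 31558 to 45655 in WT leaf, and the spread between replicates (biological coefficient of variation) was 0.424 in E82 leaf and 1.69 in WT leaf. The summed level of 7 grain genes taken as markers was 7568 to 8120 CPM (counts scaled to each library's total) in E82 grain and 10342 to 12535 CPM in WT grain, against at most 0.720 CPM in E82 leaf and 30.4 CPM in WT leaf. These grain sums were mostly TraesCS4A02G296100 and TraesCS4A02G296000. The other grain markers were far lower in E82 grain. TraesCS7A02G070100 averaged 17.3 CPM in E82 grain and 131 CPM in WT grain, and TraesCS7D02G064300 18.7 and 237 CPM. TraesCS5A02G155900, TraesCS5B02G154100 and TraesCS5D02G161000 averaged 0.329 to 0.746 CPM in E82 grain and 18.9 to 20.0 CPM in WT grain. The summed level of 6 leaf genes was 1330 to 3181 CPM in E82 leaf and 11270 to 16375 CPM in WT leaf, with 685 to 970 CPM in E82 grain and 929 to 1274 CPM in WT grain, and the part of these differences in the leaf results was not tested. The leaf list was not uniform, since TraesCS2B02G390700 averaged 34.5 CPM in E82 leaf and 7.36 CPM in WT leaf, the other 5 were lower in E82 leaf, and 3 of its genes (TraesCS4A02G016400, TraesCS4B02G287800 and TraesCS4D02G286500) averaged 233 to 353 CPM in E82 grain, beside 246 to 329 CPM in E82 leaf. In whole grain and leaf, fewer cells of a type and less RNA per cell cannot be told apart.

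In grain and by library totals, the summed level of the 1A stretch differed between the lines by less than the spread between replicates. So did that of the 1D stretch. The level was summed over genes in CPM. The 242 genes of the 1A stretch reached 2909, 2928 and 2894 CPM in E82 grain, against 2689, 3147 and 2851 CPM in WT grain. The means were 2910 ± 17.3 CPM in E82 and 2895 ± 232 CPM in the WT (SD, n = 3 each), a ratio of 1.01 ± 0.0809 (SD, from the spread of both lines). All E82 values lay inside the range of the WT. The 271 genes of the 1D stretch reached 3094, 3173 and 3004 CPM in E82 grain, against 2959, 3228 and 3281 CPM in WT grain, a ratio of 0.979 ± 0.0599. Here too the E82 values lay inside the WT range. The 1B stretch gave 37.9, 28.7 and 31.2 CPM in E82 grain and 2902, 2999 and 2752 CPM in WT grain.

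The leaf stretches gave the same picture, with more spread. The 1A stretch reached 2778, 2672 and 3057 CPM in E82 leaf and 3076, 2753 and 2794 CPM in WT leaf, and the lines overlapped, with a ratio of 0.987 ± 0.0919. The 1D stretch reached 2379, 2424 and 2541 CPM in E82 leaf and 2966, 2457 and 2546 CPM in WT leaf, a ratio of 0.922 ± 0.0994. The lines overlapped in CPM. In TPM, which divides by transcript length, they were narrowly separate on 1D, with 1490 ± 52.6 TPM in E82 and 1698 ± 196 TPM in the WT. The highest E82 leaf library had 1549 TPM there and the lowest WT leaf library 1582 TPM. Over the 12 libraries TPM summed to between 757995 and 867760 and was not brought to a common sum, so this separation may hang on the scale. The 1B stretch had 46.9 ± 9.67 CPM in E82 leaf and 3107 ± 177 CPM in WT leaf.

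**Figure D1:**
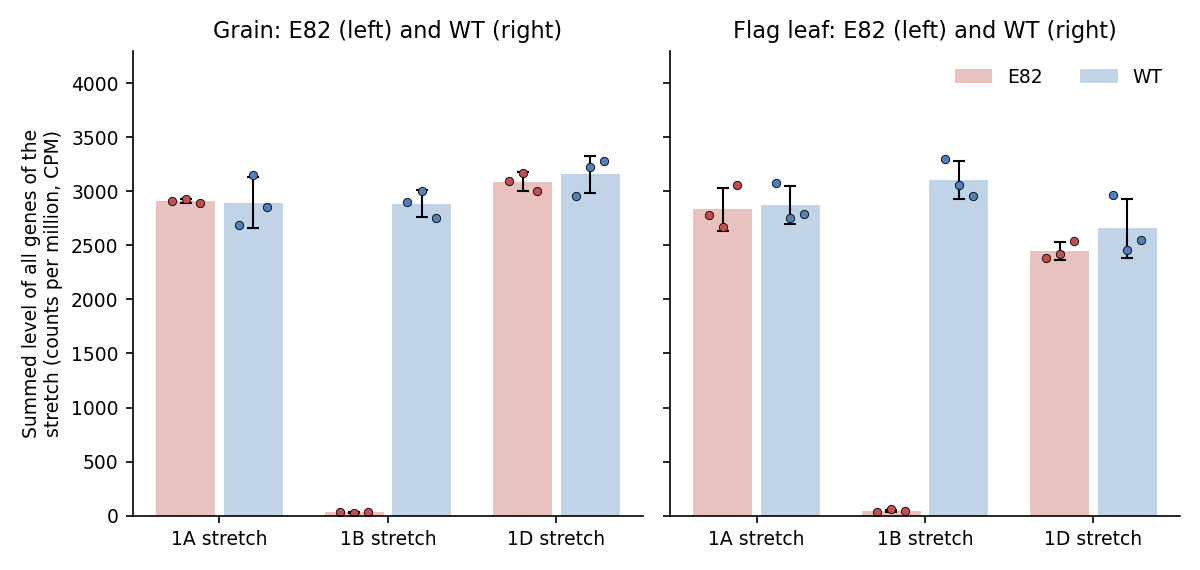
Summed level (CPM, library totals) of all genes of the 1A, 1B and 1D stretches in grain and flag leaf, with E82 left of the WT. Bars are means of 3 libraries, whiskers the SD and points the libraries; the 1A and 1D bars of E82 stand at 0.922 to 1.01 times those of the WT, while the 1B bars of E82 are near 0.

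Had the 1A and 1D stretches together carried what the 1B stretch lost, their summed level in E82 would have been 1.47 times that of the WT in grain and 1.55 times in leaf. These levels take the stretches as full counterparts. The borders of the 1B stretch and those of the 1A and 1D stretches were set by different rules, and no pairs were made. Copies of some 1B genes may thus lie outside the 1A and 1D stretches. The ratio observed was 0.992 ± 0.0630 in grain and 0.955 ± 0.0919 in leaf. In absolute terms, 1A and 1D together differed by -50.8 CPM in grain (6001 ± 102 CPM in E82 and 6051 ± 370 CPM in the WT), beside a 1B difference of -2852 CPM. In leaf they differed by -247 CPM (5284 ± 274 CPM in E82 and 5531 ± 448 CPM in the WT), beside -3060 CPM for 1B. The highest E82 library had 6101 CPM in grain, where 8903 CPM would have been needed, and 5598 CPM in leaf, where 8591 CPM would have been needed.

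Shares of the group 1 stretches are parts of a common total. The joint share of 1A and 1D therefore had to be higher in E82 once 1B was chosen as low. Of the summed level of the 1A, 1B and 1D stretches, 1A made up 48.2 ± 0.524% in E82 grain and 32.4 ± 1.09% in WT grain, and 1D made up 51.2 ± 0.548% in E82 grain and 35.3 ± 1.39% in WT grain. The 1B share was 0.541 ± 0.0801% in E82 grain and 32.3 ± 1.51% in WT grain. In leaf, 1A held 53.2 ± 1.19% in E82 and 33.3 ± 0.373% in the WT, 1D held 46.0 ± 1.02% in E82 and 30.7 ± 1.01% in the WT, and 1B held 0.883 ± 0.200% in E82 and 36.0 ± 0.868% in the WT. The total over all these genes was 0.675 ± 0.0333 times the WT in grain and 0.617 ± 0.0540 times in leaf.

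The direction of such small differences depends on the scaling. TMM scaling, which sets the libraries so that most genes balance, moved the median log2 ratio of all genes by 0.18 in grain and by -0.27 in leaf between library totals and TMM (totals minus TMM). On the TMM scale the 1A and 1D stretches together stood at 0.871 times the WT in grain and 1.16 times in leaf, and the summed level of all genes at 0.873 times in grain and 1.21 times in leaf. Neither scaling brought the stretches to the level needed, and both placed them close to all genes. The deposited counts are estimates, in which reads that fit several copies are divided among them. Of the counts above 0, 56.7% were not whole among the members and 57.0% among all genes, and how far reads shared between homeologs shape the 1A and 1D values was not tested.

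Gene by gene, the members followed the rest of the genome. A gene was tested in a tissue if its CPM summed to more than 1 over the 6 libraries of that tissue. This held for 333 members in grain (149 on 1A and 184 on 1D) and 273 in leaf (123 and 150), with 253 tested in both, 80 in grain alone, 20 in leaf alone and 160 in neither. Of the members, 134 had at most 3 counts in every grain library and 188 in every leaf library. With edgeR's quasi-likelihood test and Benjamini-Hochberg adjustment over all genes tested (threshold 0.05), 1 member was called higher and 2 were called lower in E82 grain. Over all 64706 genes tested in grain, 0.0927% were called higher and 1.31% lower, 1.4% in either direction, beside 0.901% of the members. In leaf, 1 member was called higher and 0 lower, beside 0.0204% and 0.143% of 53874 genes. At an unadjusted p under 0.05 there were 30 members in grain (9.01%, against 10.2% of all genes) and 57 in leaf (20.9%, against 19.3%). On the 1B stretch, 138 of 223 tested genes were called lower in grain and 30 of 184 in leaf. That stretch was chosen for its low ratios in these same libraries, so its calls are a description only.

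These few calls rested on single libraries and on the test used. Without E82 grain replicate 1 there were 0 calls among the members in grain, without E82 replicate 2, E82 replicate 3 or WT replicate 2 there was 1, and without WT replicate 3 there were 6. In leaf, 55 members were called without WT leaf replicate 1 (48 higher and 7 lower, 20.6% of the members tested beside 16.8% of all genes), and 0 without any other library. DESeq2 called 3 members higher and 10 lower in grain, beside 0.694% and 3.62% of all genes with an adjusted p, and 21 higher and 13 lower in leaf, beside 7.63% and 4.89%. edgeR's exact test called 3 higher and 6 lower in grain, beside 0.423% and 2.8%, and 25 higher and 8 lower in leaf, beside 8.86% and 2.04%.

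The centre of the fold changes was close to that of all genes. The median log2 fold change (log2FC, E82 over WT) in grain was -0.02 on 1A and -0.02 on 1D, against 0.01 over all genes tested, 0.01 over the rest of 1A and 0.01 over the rest of 1D. In leaf it was 0.05 on 1A and 0.10 on 1D, against 0.21 over all genes, 0.18 over the rest of 1A and 0.16 over the rest of 1D. The medians of whole chromosomes ran from -0.04 (1B) to 0.09 (3D) in grain and from 0.02 (1B) to 0.31 (6A) in leaf. Among genes averaging 1 CPM or more, the medians were 0.01 on 1A (113 genes) and 0.00 on 1D (138 genes) in grain, against 0.01 over all genes, and 0.02 (104 genes) and 0.07 (125 genes) in leaf, against 0.14. On the 1B stretch the median of the ratios of mean CPM, with 0.1 CPM added, was -5.22 in grain and -5.34 in leaf.

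The spread around these medians was also that of the genome at large. In grain 29 members had a log2FC above 1 (8.71%, against 10.2% of all genes) and 44 had one below -1 (13.2%, against 12.7%). In leaf 59 were above 1 (21.6%, against 26.6%) and 45 were below -1 (16.5%, against 17.5%). All 3 E82 libraries were above all 3 WT libraries for 20 members in grain (6.01%, against 7.1%) and below them for 33 (9.91%, against 9.27%). In leaf this held for 53 members above (19.4%, against 23.8%) and 24 below (8.79%, against 7.39%).

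**Figure D2:**
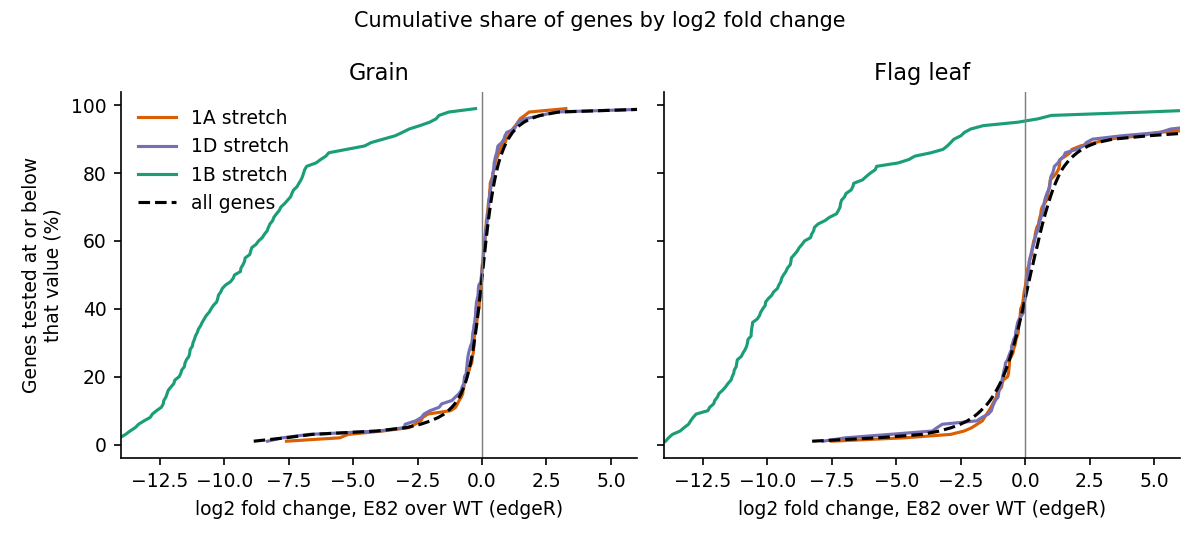
Cumulative share of tested genes (%) by log2FC of E82 over WT from edgeR with TMM scaling, in grain and flag leaf, for the 1A, 1D and 1B stretches and all genes. The 1A and 1D curves run close to the dashed curve of all genes in grain (medians -0.02 and -0.02, against 0.01) and lie somewhat to its left at the median in leaf (0.05 and 0.10, against 0.21), while the 1B curve lies far to the left; values far from 0 belong to genes with libraries at 0 counts and depend on the prior count of the fit.

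Among the better expressed members a gain of the size in question was uncommon in grain. If all copies of a gene had equal levels and 1A and 1D shared the loss evenly, each gene would show a log2FC of about 0.58, a ratio of 1.5. Neither condition was tested. The 114 members that averaged 10 CPM or more in grain included 3 above this value and 14 below its negative (2.63% and 12.3%, against 6.16% and 10.4% of all such genes). By library totals these counts became 9 above and 5 below (7.89% and 4.39%, against 11.9% and 6.97%), so the side on which more members fell turned with the scaling, in the members as in all genes. In leaf, 30 of 115 members were above and 24 below (26.1% and 20.9%, against 29.0% and 18.8%), and by library totals 18 were above and 35 below (15.7% and 30.4%, against 18.5% and 28.6%). In grain 108 of the 114 stayed within a log2FC of 1 on either side, 94.7% beside 93.4% of all genes at that level, and in leaf 93 of 115 did, 80.9% beside 76.8%.

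Along the chromosomes no run of 15 members had a median log2FC under -1. The 1B stretch was itself chosen by a similar rule, so it is no independent yardstick here. The order of the IDs stands in for position. The median log2FC over 15 neighbouring tested members stayed between -0.70 and 0.21 on 1A and between -0.56 and 0.33 on 1D in grain, and between -0.51 and 0.68 on 1A and between -0.53 and 0.62 on 1D in leaf. It was under -1 in 0 of the 135 and 170 positions in grain and 0 of the 109 and 136 positions in leaf. It exceeded 0.58 in 0 positions in grain and in 3 positions on each chromosome in leaf, around TraesCS1A02G089700 and TraesCS1D02G091000, where the median of all leaf genes was 0.21. With members of at least 1 CPM alone, the highest leaf values were 0.32 on 1A and 0.41 on 1D.

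**Figure D3:**
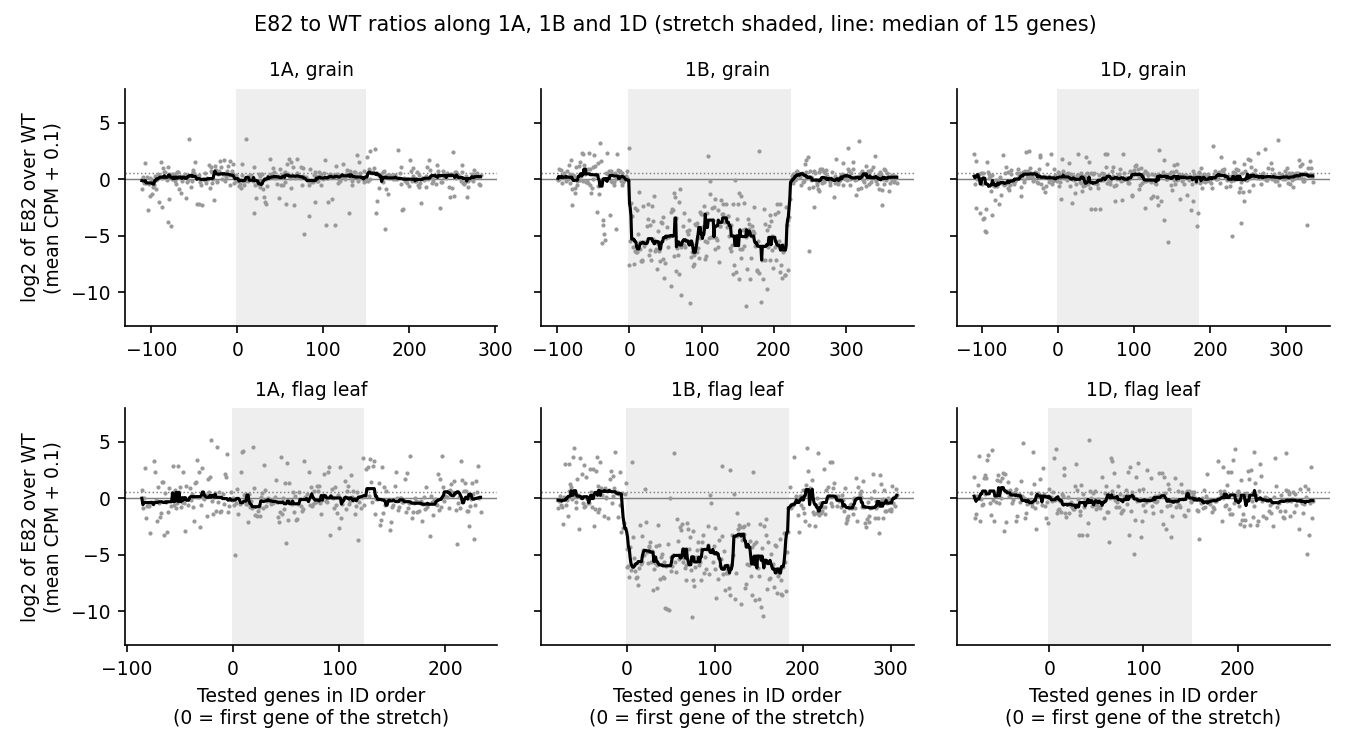
log2 of the ratio of mean CPM, E82 over WT, with 0.1 CPM added and library totals as the scale, for tested genes in ID order on 1A, 1B and 1D in grain (top) and flag leaf (bottom). Grey points are genes, the black line is the median of 15 neighbouring genes, shading marks the stretch and the dotted line marks 0.58; the line stays near 0 across the shaded parts of 1A and 1D and sits near -5 across that of 1B.

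In grain, TraesCS1A02G076700 was the single member called higher. It had 6.20, 5.55 and 8.27 CPM (TMM-scaled, as for all single genes below) in E82 grain, against 0.248, 0.509 and 0.808 CPM in WT grain. Its log2FC was 3.66 with a standard error (SE) of 0.567 and an adjusted p of 0.0135 in edgeR's quasi-likelihood test, where the SE was worked back from the log2FC and the F statistic. All E82 libraries were above all WT libraries. The adjusted p was 0.073 without E82 replicate 1, 0.067 without E82 replicate 2, 0.109 without E82 replicate 3 and 0.054 without WT replicate 2. In leaf the same gene had 1.23, 7.53 and 22.1 CPM in E82 and 0, 1.28 and 0 CPM in the WT, where the lines overlapped.

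The 2 members called lower in grain were both on 1D and had no count in any leaf library. TraesCS1D02G107600 had 6.74, 6.15 and 10.5 CPM in E82 grain, against 278, 188 and 34.9 CPM in WT grain, and its log2FC was -4.42 (SE 0.653, adjusted p = 0.0110 in edgeR's quasi-likelihood test). The lines did not overlap, although the WT libraries themselves spread widely. Its adjusted p lay between 0.084 and 0.119 when any single E82 library was left out. TraesCS1D02G102700 had 0 CPM in every E82 grain library, against 12.9, 2.36 and 0.727 CPM in WT grain, that is 521, 116 and 36 counts. Taken against the mean floor of 3 counts per E82 library, it was at least 74.0-fold lower, or at least 21.4-fold without WT grain replicate 1. That floor covers counting error only. With all libraries its adjusted p was 0.0339 in edgeR's quasi-likelihood test. That call was lost without any single E82 library, without WT replicate 1 and without WT replicate 2, with adjusted p up to 0.359, and both limma fits on log2(TPM + pseudocount) gave 0.07 or more.

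Other grain members with separate lines, named where a line averaged 10 CPM or more, did not pass the test. TraesCS1A02G081700 had 14.6, 5.92 and 9.88 CPM in E82 grain and 1.91, 4.11 and 3.27 CPM in WT grain (log2FC 1.71, adjusted p = 0.122 by edgeR). TraesCS1A02G095800 had 24.4, 24.4 and 24.2 CPM in E82 grain and 3.34, 9.30 and 17.1 CPM in WT grain (log2FC 1.30, adjusted p = 0.341 by edgeR), and in leaf its log2FC was -1.49. Its grain log2FC was 0.85 without WT grain replicate 1 and 1.92 without WT grain replicate 3. On 1D the largest such values were smaller, with a log2FC of 0.68 for TraesCS1D02G094600 and 0.62 for TraesCS1D02G107000. On the lower side, TraesCS1A02G087700 had 0.124, 0 and 1.05 CPM in E82 grain and 8.16 to 31.2 CPM in WT grain, with an adjusted p of 0.0507 by edgeR that became 0.0324 without E82 grain replicate 3. TraesCS1D02G100800 had 1.28, 4.41 and 4.33 CPM in E82 grain and 36.5, 11.03 and 11.7 CPM in WT grain, with a log2FC of -2.57 and an adjusted p of 0.0776 by edgeR, and without WT grain replicate 1 the log2FC was -1.80 (adjusted p = 0.253).

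**Figure D4:**
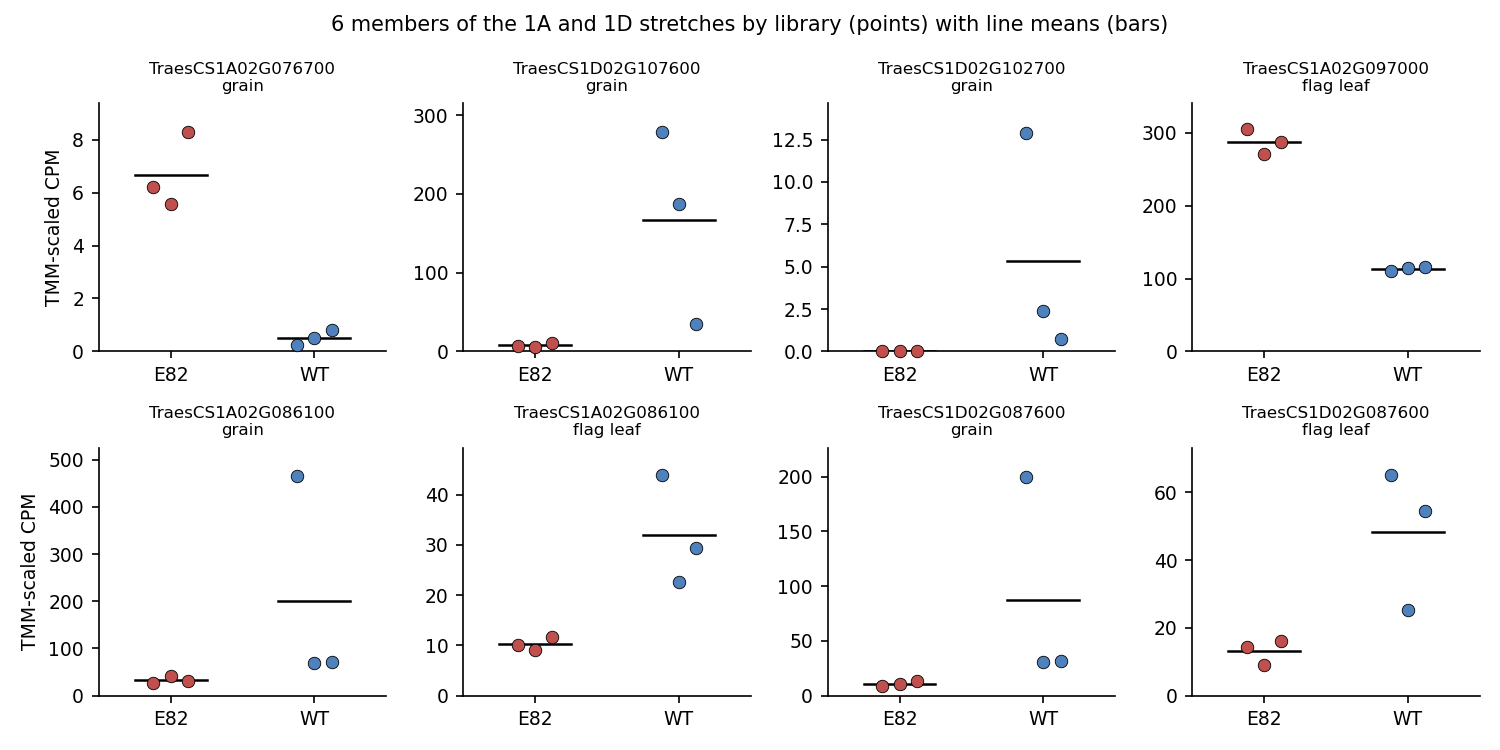
Level (TMM-scaled CPM, linear axes from 0) of 6 members by library, E82 left of the WT, with points for libraries and black bars for line means. The top row shows the members called in grain or flag leaf and the bottom row 2 members that were below the WT in every E82 library of both tissues; WT grain replicate 1 is the high point of both in grain.

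The most abundant grain members were read in TPM, the scale on which genes of a library can be set beside each other. Between libraries its sum was not made equal, as given above. TraesCS1A02G092900 had 393, 355 and 334 TPM in E82 grain and 190, 277 and 362 TPM in WT grain, and TraesCS1D02G101600 had 361, 375 and 320 TPM in E82 grain and 194, 265 and 336 TPM in WT grain. The lines overlapped for both, with a log2FC of 0.19 ± 0.208 and 0.21 ± 0.201 (SE). TraesCS1A02G083800 had 175, 244 and 183 TPM in E82 grain and 203, 411 and 221 TPM in WT grain, where the lines overlapped (log2FC -0.66 ± 0.257, adjusted p = 0.398 by edgeR's quasi-likelihood test). TraesCS1D02G084900 had 200, 268 and 215 TPM in E82 grain and 271, 341 and 332 TPM in WT grain, and its E82 libraries were below all WT libraries (log2FC -0.69 ± 0.205, adjusted p = 0.208 by edgeR's quasi-likelihood test). Neither of these last genes had a count in leaf. The 5 most abundant members held 49.5% of the summed TPM of the 1A stretch and 53.7% of that of the 1D stretch in grain, so the sums lean on few genes.

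In leaf, the member called higher, TraesCS1A02G097000, was also the most abundant 1A member by TPM. It had 448, 436 and 447 TPM in E82 leaf, against 203, 207 and 222 TPM in WT leaf, and 305, 271 and 287 CPM against 111, 114 and 116 CPM on the TMM scale. The replicates of each line lay close together and the lines were far apart. Its log2FC was 1.34 (SE 0.158, adjusted p = 0.0466 in edgeR's quasi-likelihood test). Of the 10 alternative fits on all libraries, 6 called it. Library totals alone were among those that did not (log2FC 1.06, adjusted p = 0.063 by edgeR). The adjusted p was also above the threshold when any library but WT leaf replicate 1 was left out (0.067 to 0.282). In grain this gene was at 2.21, 3.53 and 6.21 TPM in E82 and 0.950, 4.66 and 1.63 TPM in the WT. TraesCS1D02G105800, the 1D member with the highest leaf TPM, had 199, 196 and 207 TPM in E82 leaf and 125, 120 and 126 TPM in WT leaf, with a log2FC of 0.98 ± 0.155 (SE) and an adjusted p of 0.0751 by edgeR.

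The next most abundant leaf members overlapped between the lines. TraesCS1A02G093800 had 247, 143 and 317 TPM in E82 leaf and 236, 186 and 184 TPM in WT leaf. TraesCS1D02G102400 had 182, 107 and 198 TPM in E82 leaf and 196, 125 and 139 TPM in WT leaf. For both, E82 leaf replicate 2 was the lowest library. The 5 most abundant members held 45.8% of the 1A and 33.4% of the 1D sum in leaf.

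Further leaf members had separate lines without passing the test. On the higher side, TraesCS1A02G076400 had 9.25, 12.8 and 11.9 CPM in E82 leaf and 2.29, 3.35 and 0 CPM in WT leaf, and TraesCS1A02G084300 had 30.6, 25.2 and 31.9 CPM in E82 leaf and 9.20, 9.11 and 5.10 CPM in WT leaf. TraesCS1D02G083100 had 13.1, 25.6 and 22.1 CPM in E82 leaf and 2.14, 3.37 and 6.03 CPM in WT leaf. TraesCS1D02G085400 had 15.3, 21.2 and 13.6 CPM in E82 leaf and 7.76, 9.97 and 1.96 CPM in WT leaf, while in grain all its E82 libraries were below the WT (13.6, 19.1 and 14.8 CPM in E82, against 23.0, 26.9 and 21.4 CPM in the WT). On the lower side, TraesCS1A02G095600 had 8.96, 20.2 and 15.9 CPM in E82 leaf and 47.6, 72.6 and 112 CPM in WT leaf, and TraesCS1D02G104500 had 4.09, 12.4 and 6.77 CPM in E82 leaf and 46.5, 58.2 and 108 CPM in WT leaf. The log2FC of these 6 members ran from -3.20 to 2.59, with adjusted p between 0.0822 and 0.474 in edgeR's quasi-likelihood test.

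Members whose lines were separate in both tissues were few. Of the 253 members tested in both, 3 were higher in every E82 library of grain and leaf. This was a smaller share than the 2.21% of the 49151 genes tested in both. Another 7 of the 253 were lower in every E82 library of both tissues, a larger share than the 1.09% of all genes. Among these 7, TraesCS1A02G086100 and TraesCS1D02G087600 had the lowest log2FC in leaf. TraesCS1A02G086100 had 26.6, 41.6 and 31.6 CPM in E82 grain and 465, 68.7 and 70.7 CPM in WT grain, and 10.04, 9.15 and 11.7 CPM in E82 leaf and 44.0, 22.5 and 29.4 CPM in WT leaf. TraesCS1D02G087600 had 8.70, 11.1 and 13.3 CPM in E82 grain and 200, 30.4 and 31.2 CPM in WT grain, and 14.5, 9.07 and 16.1 CPM in E82 leaf and 65.0, 25.2 and 54.4 CPM in WT leaf. WT grain replicate 1 stood far above the other WT grain libraries for both. Their log2FC was -2.60 and -2.98 in grain (adjusted p = 0.133 and 0.0773 by edgeR), and -1.10 and -1.51 without that library (adjusted p = 0.0771 and 0.0224 by edgeR).

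The 3 members higher in both tissues were TraesCS1A02G090600, TraesCS1D02G082000 and TraesCS1D02G094600, the first pair named after their values were seen. TraesCS1A02G090600 had 18.2, 22.1 and 22.5 CPM in E82 grain and 18.0, 15.7 and 17.7 CPM in WT grain, and 44.9, 44.5 and 49.5 CPM in E82 leaf and 28.5, 24.7 and 19.1 CPM in WT leaf. TraesCS1D02G094600 had 16.5, 26.6 and 13.6 CPM in E82 grain and 13.3, 10.8 and 11.4 CPM in WT grain, and 19.7, 18.3 and 18.5 CPM in E82 leaf and 12.8, 7.31 and 7.99 CPM in WT leaf. None of the 3 passed the test in either tissue. A further 2 members were higher in grain and lower in leaf without overlap (0.791%, against 0.598% of all genes tested in both), and 3 were lower in grain and higher in leaf (1.19%, against 1.41%).

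At the low end, detection differed between the lines in leaf. Between 285 and 304 members had a count in the E82 leaf libraries, against 167 to 233 in the WT leaf libraries, in step with the genome-wide difference given above. For 24 of the 513 members every WT leaf library had at most 3 counts and every E82 leaf library at least 10. This held for 3870 of all 107892 genes, a somewhat smaller share. For 0 members the reverse was the case, beside 126 of all genes. These 24 members were at a mean of 0.296 to 3.86 CPM in E82 leaf, and 0 of them were called by edgeR's quasi-likelihood test in leaf, while DESeq2 called 10 and the exact test 17, and 4 passed the interaction test described last. In grain 291 to 316 members were detected in the E82 libraries and 312 to 337 in the WT libraries. Of the 513 members, 2 had at most 3 counts in every E82 grain library beside at least 10 in every WT grain library. This held for 837 of all 107892 genes, a larger share.

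The E82 to WT ratio differed between grain and leaf for few members. In a fit of all 12 libraries with line, tissue and their interaction, 6 of 359 members tested had an adjusted p under 0.05 in edgeR's quasi-likelihood test (1.67%, against 2.93% of all genes). For 5 the log2FC in grain was below that in leaf, and for 1 above. The median difference (grain minus leaf) was -0.43 over the members and -0.37 over all genes. Of the 6 members, 5 were on 1A and 1 on 1D, and for 4 of them every WT leaf library had at most 3 counts. The study's methods name 3 plants per line as replicates for seeds and flag leaf, so grain and leaf libraries may share plants, and the labels do not say whether a number marks a plant. With the replicate number as a block 1 member passed (0.279%, against 0.301% of all genes), and with the block set within lines 0 members and 0 of all genes passed, with 28 members at an unadjusted p under 0.05.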

How the data were processed

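The authors trimmed reads with Trimmomatic 0.36, quantified them with kallisto 0.44.0 against IWGSC RefSeq v1.1 transcripts and deposited estimated counts, without normalization, in a gene table, and estimated counts and TPM of the transcripts of each library. Estimated counts were rounded to whole numbers, and transcript TPM summed per gene. Groups came from the labels, and all columns of the table were used. Each tissue was fitted on its 6 libraries with edgeR 4.0.16 in R 4.3.3 (TMM, quasi-likelihood test, Benjamini-Hochberg over all genes with a CPM sum above 1). The fits were run on simulated data with the same spread in every group, smaller than that of any group here. That check does not cover spreads as wide or as unequal as those of these libraries. The interaction used 12 libraries. Alternatives were other scalings and filters, edgeR's exact test, DESeq2 1.42.0, a shared spread, limma 3.58.1 with TPM on a log2 scale (pseudocount 1 or 0.1), where changes of low genes are understated, a replicate block, and leaving out each library. The floor of 3 counts equals 0.0501 to 0.110 CPM and covers counting error only. Genes named were, per stretch, tissue and direction, up to 3 called members, otherwise up to 2 with the largest log2FC, at least 10 CPM and separate lines, the 2 most abundant, and the 3 with the smallest interaction p. Members, lists and rules were chosen with earlier results of these data known. Summaries used Python 3.11.15 with pandas 2.3.3.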

Additional observations from a re-analysis of the deposited data

Results flagged for a closer look

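For 6 members the difference between the log2FC in grain and that in leaf passed edgeR's quasi-likelihood test of the interaction over 12 libraries. No explanation was tested. The last 3 described were named after their values were seen.

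TraesCS1A02G085000 had 13.4, 9.34 and 12.4 CPM in E82 grain and 10.1, 9.34 and 9.69 CPM in WT grain, against 62, 60 and 78 counts in E82 leaf and 0 in every WT leaf library. Against the mean WT floor of 3 counts per library, which covers counting error only, it was 16.2-fold higher in E82 leaf. Its fitted difference, grain minus leaf, was -8.68 (adjusted p = 0.00597 by edgeR). TraesCS1A02G093000 had 67.3, 61.1 and 62.7 CPM in E82 grain and 47.2, 27.5 and 81.5 CPM in WT grain. In leaf it had 39, 16 and 15 counts in E82 and 0 in every WT library, 5.64-fold higher in E82 against that floor. The fitted difference was -7.14 (adjusted p = 0.0177 by edgeR). TraesCS1A02G080100 had 155, 167 and 153 counts in E82 leaf and 0, 0 and 2 in WT leaf, with grain levels of 4.24, 9.10 and 5.08 CPM in E82 and 9.96, 7.10 and 5.80 CPM in the WT, and a fitted difference of -7.45 (adjusted p = 0.0182 by edgeR). Fitted differences of genes with libraries at 0 depend on the prior count and are no bounds. Nor are the folds against the floor bounds on the difference between the lines. A WT leaf library could be at 0 for a member well counted in the others, as for TraesCS1A02G084200 with 865, 833 and 0 counts.

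TraesCS1D02G082000 was alike, with 125, 102 and 150 counts in E82 leaf and 0, 1 and 0 in WT leaf, grain levels of 5.30, 3.25 and 3.73 CPM in E82 and 1.51, 2.38 and 1.01 CPM in the WT, and a fitted difference of -6.49 (adjusted p = 0.0319 by edgeR). TraesCS1A02G086200 was well expressed in leaf, with 292, 222 and 296 CPM in E82 and 75.96, 75.03 and 108 CPM in the WT, whereas the lines overlapped in grain at 14.4 to 16.9 CPM in E82 and 13.4 to 22.2 CPM in the WT. Its difference was -1.70 (adjusted p = 0.0258 by edgeR). TraesCS1A02G097700 went the other way, with 62.5, 56.8 and 60.9 CPM in E82 leaf and 148, 109 and 129 CPM in WT leaf, against 86.9 to 117 CPM in E82 grain and 88.3 to 105 CPM in WT grain, and a difference of 1.18 (adjusted p = 0.0491 by edgeR).

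When single libraries were left out, the number of members with such a difference ranged from 1 without E82 grain replicate 1 (0.279%, against 1.16% of all genes) to 36 without WT leaf replicate 1 (10.1%, against 9.41%). TraesCS1A02G085000 passed in all 12 of these fits, TraesCS1A02G093000 in 9, TraesCS1A02G080100 in 8, TraesCS1A02G086200 in 7, TraesCS1D02G082000 in 5 and TraesCS1A02G097700 in 2. In the 5 other fits (DESeq2, library totals, no filter and the replicate block set across or within lines), TraesCS1A02G085000 passed in 4, TraesCS1A02G093000, TraesCS1A02G080100 and TraesCS1D02G082000 in 3, and TraesCS1A02G086200 and TraesCS1A02G097700 in 2. None of the 6 passed with the block set within lines, where the adjusted p by edgeR ran from 0.270 to 0.411.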

How the results depend on the processing

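Alternatives were set beside the main values. For the calls among members in grain (3), the alternatives gave, each with the share of all genes called, 0 with 12 libraries sharing one spread (0.235%), 13 by DESeq2 (4.02%), 9 by the exact test (3.22%), 5 with library totals (1.55%) and 7 without a filter (2.15%), and leaving out single libraries gave 0 to 6. For leaf (1), they gave 18 with the shared spread (6.23%), 34 by DESeq2 (10.6%), 33 by the exact test (10.9%), 31 with filterByExpr (8.1%), 30 and 13 by limma with pseudocounts of 0.1 and 1 (7.45% and 2.36%), and 0 with RLE (0.165%) or library totals (0.275%), and leaving out libraries gave 0 to 55. For the interaction (6), DESeq2 gave 29 (8.64%), and leaving out libraries gave 1 to 36. Same-numbered libraries did not deviate together (r from -0.0509 to 0.0421), so they were not treated as pairs. With the replicate block grain had 4 calls, leaf had 0 and the interaction had 1, or 0 when the block was set within lines.

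In grain, library totals moved the median log2FC of 1A to 0.18 and of 1D to 0.14, and limma to 0.21 and 0.15 on 1A and 0.14 and 0.12 on 1D (pseudocounts 0.1 and 1). Without a filter 1D was at -0.068, and with the replicate block at -0.061. Leaving out libraries gave -0.056 to 0.018 on 1A and -0.078 to -0.030 on 1D. In leaf, library totals gave -0.22 on 1A and -0.17 on 1D, no filter 0.31 and 0.39, and the replicate block 0.47 and 0.86, and limma with 0.1 gave 0.45 on 1D. Leaving out libraries gave -0.023 to 0.22 on 1A and -0.037 to 0.38 on 1D. Over all these fits the medians less that of all genes stayed between -0.07 and 0.03 in grain, and between -0.39 and 0.03 in leaf.

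The ratio of summed levels in grain was 0.883 (1A) and 0.859 (1D) with TMM scaling, and 1.09, 1.06 and 0.0165 (1B) in TPM. Leaving out libraries gave 0.971 to 1.05 on 1A, 0.950 to 0.999 on 1D and 0.0104 to 0.0120 on 1B. In leaf, TMM scaling gave 1.197 and 1.12, TPM gave 0.0197 on 1B, and without the 5 most abundant genes 1A was at 0.874. That setting gave 0.0159 on 1B in grain and 0.0209 in leaf. Leaving out libraries gave 0.948 to 1.02 on 1A, 0.888 to 0.979 on 1D and 0.0135 to 0.0166 on 1B. The cause of these moves was not tested. Of the single-gene values that were refitted, none changed direction, while TraesCS1A02G090600 and members in the tissue for which the rule did not name them were not refitted. In WT leaf, low detection limits what single members can show.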
